A study of Mus musculus with 24 samples.

Results

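The 10 transcripts described here encode the cell-surface chains that bind interferons, the kinases docked to them, and a pair of inhibitors that the pathway induces against itself. They were taken by gene name as Ifnar1, Ifnar2, Ifngr1, Ifngr2, Il10rb, Jak1, Jak2, Tyk2, Socs1 and Socs3, which are 10 of the 27179 genes counted, and all 10 passed the expression filter in each comparison. Poly(A) RNA was sequenced from 3 bone marrow populations of 8 mice, with 4 libraries in each of 6 groups: HSC, MPP and HPC-1 of mice with Phf6 deleted, and the same populations of control mice with Phf6 intact. HSC are haematopoietic stem cells, MPP multipotent progenitors and HPC-1 more restricted progenitors, and each of 4 litters gave 1 deleted and 1 control mouse. The strain label, Phf6lox/Y;Tie2-creTg/+, names a floxed allele of the X-linked gene Phf6 and a Cre transgene under the Tie2 promoter, which drives recombination in endothelial and haematopoietic cells. Deleted and control mice bear this same label, which leaves unclear whether Cre was present in the controls, and the age of the mice is not given. Marrow was depleted of cells bearing CD3, B220, GR1 or TER119, and populations were sorted by their cKIT, SCA1, CD48 and CD150 staining.

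Type I interferons bind a receptor of the chains Ifnar1 and Ifnar2, which carry the kinases Tyk2 and Jak1. Interferon gamma binds Ifngr1, which carries Jak1, beside Ifngr2, which carries Jak2, and Il10rb is the accessory chain shared by the receptors of interleukin 10, interleukin 22 and the lambda interferons. The kinases phosphorylate STAT proteins, which switch on interferon-induced genes, Socs1 among them, and Socs1 and Socs3 then block the kinases or receptors. In blood stem cells, interferons are known to bring dormant cells into cycle.

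The genes for 4 of the 5 receptor chains stand side by side on mouse chromosome 16. Ifnar2 (91372783 to 91405589), Il10rb (91406157 to 91425834), Ifnar1 (91485032 to 91510523) and Ifngr2 (91547059 to 91564007) all lie on the plus strand within 191.2 kb of GRCm38.p6. Ifngr1 lies on chromosome 10 (19591949 to 19610229), Jak1 on chromosome 4 (101151974 to 101265282), Jak2 on chromosome 19 (29251803 to 29313095) and Tyk2 on chromosome 9 (21104068 to 21131393). Socs1 lies on chromosome 16 (10783808 to 10785536), apart from the receptor genes, and Socs3 on chromosome 11 (117966079 to 117970336). Counts were taken to cover exons, since the deposited gene lengths are shorter than these spans. In a GENCODE annotation of this build, exons of Gm21970 overlap those of Ifnar2 and Il10rb on the same strand. On the opposite strand, exons of Raver2 overlap Jak1 and those of 1700084C06Rik overlap Tyk2. The annotation used for counting is not given, so whether reads of these 4 members could belong to the neighbour is not known.

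The 250 bases before a RefSeq transcript start are shown for 4 of the receptor chains, whose transcripts rose together in MPP of control mice, and for the SOCS genes, which are textbook targets of STAT proteins. They are from RefSeq on GRCm38.p6, printed 5′ to 3′ on the gene's own strand, and 9 of the 10 members were matched, all but Il10rb. The start used is the 5′ end of the gene as given above for Ifnar2, Ifngr1, Ifngr2 and Socs1. For Ifnar1 it lies 183 bases and for Socs3 970 bases inside the gene, so that the Ifnar1 window is partly and the Socs3 window wholly within it. Capitals mark matches to the interferon-gamma-activated site TTCNNNGAA (GAS), the interferon-stimulated response element with GAAA, any 2 bases and GAAA again (ISRE) or the GC box GGGCGG, searched on both strands. The windows are chr16:91484965-91485214 (plus strand) for Ifnar1, chr16:91372533-91372782 (plus) for Ifnar2, chr10:19591699-19591948 (plus) for Ifngr1, chr16:91546809-91547058 (plus) for Ifngr2, chr16:10785537-10785786 (minus) for Socs1 and chr11:117969367-117969616 (minus) for Socs3.
Ifnar1: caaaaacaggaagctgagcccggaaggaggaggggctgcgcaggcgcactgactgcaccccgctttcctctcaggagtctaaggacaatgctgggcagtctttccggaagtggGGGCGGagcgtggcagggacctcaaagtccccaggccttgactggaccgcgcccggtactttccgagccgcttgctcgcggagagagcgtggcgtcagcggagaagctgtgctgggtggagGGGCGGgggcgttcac
Ifnar2: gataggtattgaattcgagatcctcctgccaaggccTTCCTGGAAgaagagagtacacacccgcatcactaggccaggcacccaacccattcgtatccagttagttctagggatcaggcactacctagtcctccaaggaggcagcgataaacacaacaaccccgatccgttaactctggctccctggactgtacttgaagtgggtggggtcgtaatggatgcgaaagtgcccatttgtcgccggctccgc
Ifngr1: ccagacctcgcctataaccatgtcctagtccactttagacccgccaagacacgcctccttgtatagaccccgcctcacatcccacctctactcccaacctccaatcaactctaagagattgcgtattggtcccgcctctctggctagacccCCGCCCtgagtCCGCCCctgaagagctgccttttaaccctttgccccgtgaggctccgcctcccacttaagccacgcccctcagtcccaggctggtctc
Ifngr2: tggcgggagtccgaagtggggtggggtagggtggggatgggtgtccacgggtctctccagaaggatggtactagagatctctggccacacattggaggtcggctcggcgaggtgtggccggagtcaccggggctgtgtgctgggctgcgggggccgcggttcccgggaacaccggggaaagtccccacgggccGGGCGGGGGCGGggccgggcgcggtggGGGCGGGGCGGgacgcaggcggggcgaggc
Socs1: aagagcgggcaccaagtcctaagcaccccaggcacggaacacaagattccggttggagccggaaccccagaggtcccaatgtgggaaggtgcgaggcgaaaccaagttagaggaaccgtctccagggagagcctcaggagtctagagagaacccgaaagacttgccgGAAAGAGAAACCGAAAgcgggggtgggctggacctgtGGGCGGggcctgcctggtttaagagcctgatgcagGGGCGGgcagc
Socs3: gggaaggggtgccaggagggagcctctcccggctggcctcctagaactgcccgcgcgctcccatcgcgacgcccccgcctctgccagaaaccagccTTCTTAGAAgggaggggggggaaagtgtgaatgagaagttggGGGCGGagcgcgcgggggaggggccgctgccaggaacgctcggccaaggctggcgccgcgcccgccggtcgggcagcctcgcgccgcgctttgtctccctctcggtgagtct
The Socs1 window held 2 ISRE matches that overlap each other, beginning 83 and 77 bases before the start, and 2 GC boxes. A GAS match began 154 bases before the start used for Socs3, beside 1 GC box, and another 214 bases before that of Ifnar2, which held no GC box. Ifnar1 and Ifngr1 each held 2 GC boxes, and Ifngr2 held 4, among them overlapping neighbours, with no GAS or ISRE match in these 3 windows. The AP-1 motif TGANTCA had no match in any member's window. Over the 27025 promoter windows of the same length, 7.18% held a GAS match, 3.04% an ISRE match, 32.9% a GC box and 6.87% an AP-1 match.

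Total counts ran from 9658167 to 27786830 per library, and each library held 23 to 16603 counts of any 1 of the 10 genes. Phf6 was at 36.8 to 79.8, 49.6 to 68.7 and 21.0 to 32.8 CPM in deleted HSC, MPP and HPC-1, against 183 to 240, 172 to 234 and 98.8 to 142 CPM in the controls, so no library went against its label. CPM are counts scaled to a common library total, after TMM scaling of library sizes. Among MPP libraries that of deleted mouse 3 was unlike the rest, with 9.339% of its counts in 10 genes (2.948% to 5.083% in the other 15 HSC and MPP libraries) and a scaling factor of 0.8011 (0.9911 to 1.057). Of the sort antigens, Slamf1, which encodes CD150, averaged 1.9 CPM in control MPP and 67.3 CPM in control HSC, and Flt3, a progenitor receptor, averaged 446 and 43.4 CPM. Ly6a, another sort antigen, averaged 324 and 162 CPM. Of 9 HSC markers, Slamf1, Ctnnal1 and Mllt3 fell but Hlf and Procr rose in control MPP (edgeR adjusted p under 0.05). The 9 summed to 1370 to 1960 CPM in control MPP and 1200 to 1580 CPM in control HSC. Cd48 averaged 213 and 183 CPM in deleted and control HPC-1, against 25.0 and 27.8 CPM in MPP and 18.9 and 14.8 CPM in HSC. Pax5 and Ebf1 of B cells, Cd3e of T cells and Cdh5 of endothelium were at 0 in HSC and MPP. Some other genes of the same marker lists were well above 0. Cd79b averaged 37.3 to 44.7 CPM in the HSC and MPP groups, Nkg7 89.3 to 158 CPM and Pecam1 22.0 to 50.9 CPM. The B cell, T and NK cell and endothelial lists summed to 31.2 to 55.9, 61.3 to 212 and 35.9 to 108 CPM there. Transcripts of 13 mature neutrophil and monocyte markers, whose cells the GR1 depletion should remove, summed to 1360 to 10600 CPM in deleted and 611 to 7480 CPM in control HSC, 1360 to 13600 and 216 to 2760 CPM in MPP, and 439 to 3090 and 454 to 1460 CPM in HPC-1, with none of the 13 at 0 in any group. The 5 basophil and mast cell markers summed to 17.8 to 142 CPM in deleted and 20.6 to 40.8 CPM in control HSC. In deleted HSC 3 of the 4 tested were higher, with a median log2 fold change of 1.864, and 0 had an edgeR adjusted p under 0.05. In MPP they summed to 6.25 to 94.4 and 14.1 to 36.4 CPM, and in HPC-1 to 58.1 to 155 and 74.0 to 146 CPM. Their part in the members was not tested. In sorted cells, fewer cells of a kind and less RNA per cell cannot be told apart.

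Jak1 and Ifngr1 had the highest medians of the 10 transcripts in each population, per kilobase of the deposited gene length. Ifngr1, the ligand-binding chain for interferon gamma, had a median over 8 libraries of 186 CPM per kb in MPP and 102 in HSC, and Jak1, the kinase shared by both receptor types, one of 122 in MPP and 97.3 in HSC. These 2 did not separate in HSC or MPP, and each lay above the next gene, Ifnar2, in all 4 groups. In HPC-1 the median was 63.8 CPM per kb for Ifngr1 and 78.9 for Jak1, and their ranges overlapped in deleted mice but not in controls. Ifnar2 (61.0, 38.2 and 50.6 CPM per kb in MPP, HSC and HPC-1) overlapped Il10rb (52.1, 29.9 and 48.3) in every group. Jak2 (22.6, 23.8 and 24.9) and Tyk2 (18.3, 17.2 and 23.7) overlapped each other everywhere. Within each receptor, 1 chain was the scarcer: Ifnar1 had 15.8, 12.9 and 17.8 CPM per kb and Ifngr2 19.2, 8.17 and 16.2. Socs1 (9.61, 10.2 and 3.36) and Socs3 (3.58, 2.14 and 7.47) were the lowest members in MPP, and Ifngr2 lay between them in HSC. In HPC-1 Socs3 ran from 2.68 to 89.0 CPM per kb over the 8 libraries. HPC-1 libraries were made with another kit, so their levels were set beside the others and not tested.

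**Figure D1:**
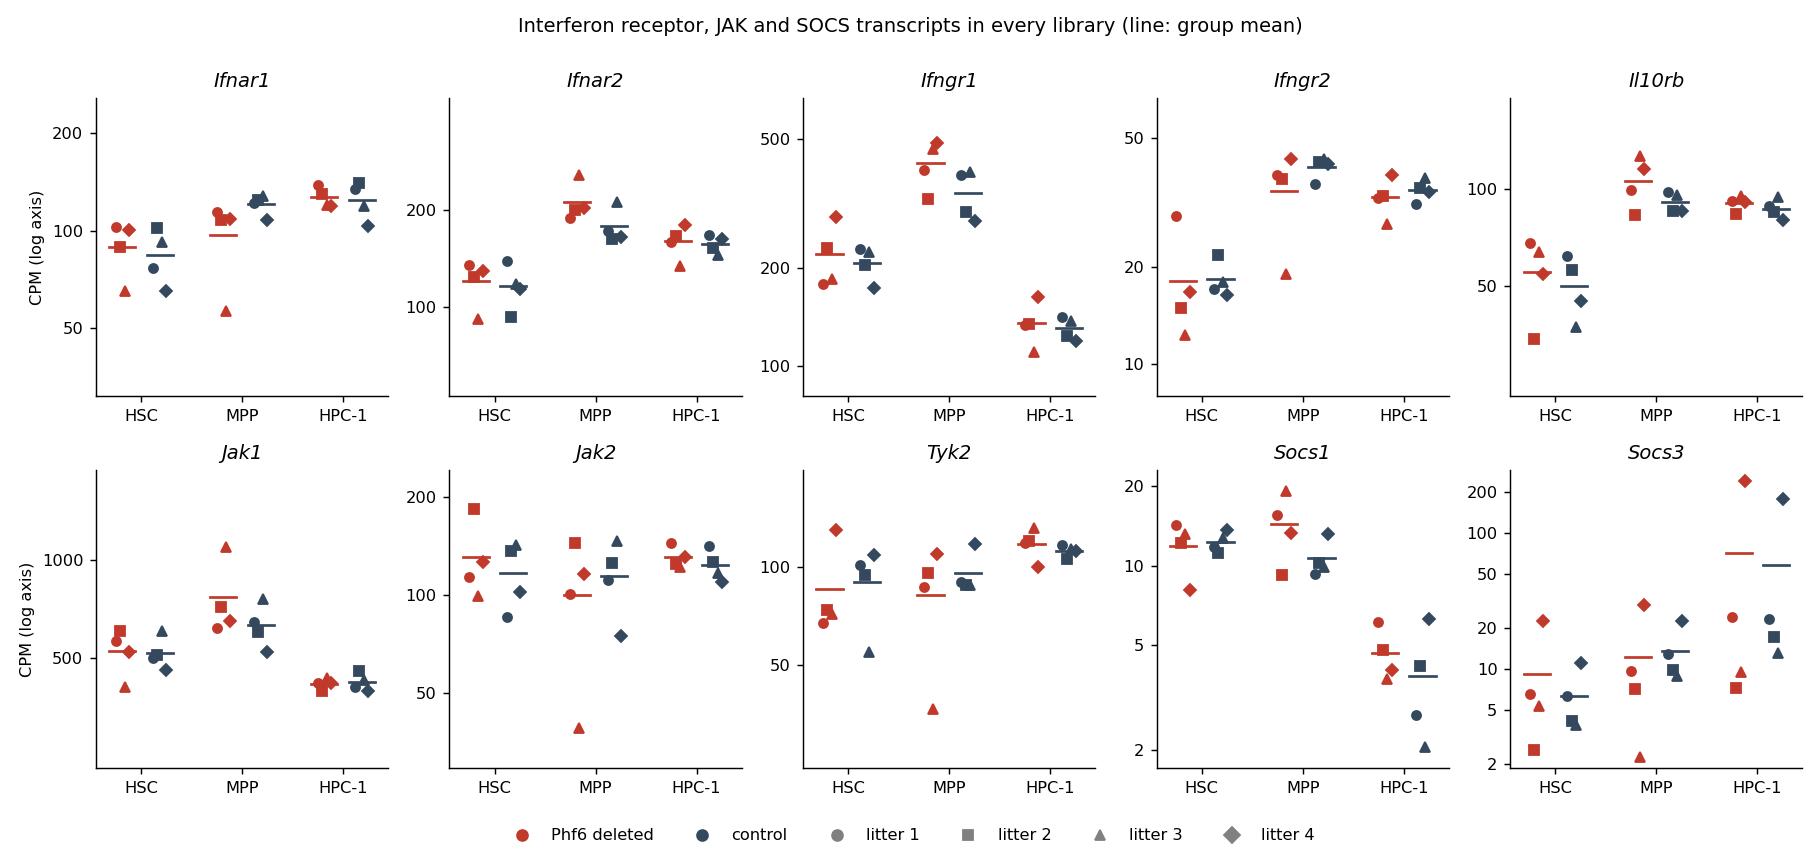
CPM (log axis) of the 10 transcripts in each of the 24 libraries, with Phf6-deleted mice in red left of control mice in blue, symbols for litters and lines for group means. Deleted and control libraries overlap for all 10 genes in each population, and Socs3 is highest in litter 4 in each group.

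Deletion of Phf6 was not followed by a detected change in any receptor chain. In deleted MPP, Ifnar1 had 114, 108, 56.4 and 109 CPM in litters 1 to 4, against 122, 124, 128 and 108 CPM in control MPP. In deleted HSC Ifnar1 had 102, 89.3, 65.2 and 100 CPM, against 76.9, 102, 92.2 and 65.3 CPM in control HSC. Deleted mouse 3 was the lowest of its group in both populations, and the groups overlapped. Ifnar2, the chain that binds type I interferon with high affinity, had 188, 199, 255 and 202 CPM in deleted MPP, against 171, 163, 211 and 165 CPM in control MPP. In HSC the deleted mice had 135, 124, 91.9 and 130 CPM, against 139, 93.5, 118 and 114 CPM in controls. The deleted mouse had the higher value in 4 of 4 litters in MPP and in 2 of 4 in HSC.

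Ifngr1 had 402, 327, 467 and 486 CPM in deleted MPP, against 387, 299, 395 and 278 CPM in control MPP, and was likewise higher in 4 of 4 litters there. Deleted HSC had 179, 230, 186 and 288 CPM, against 229, 205, 224 and 174 CPM in controls. Mouse 4 was the highest of the deleted libraries and the lowest of the controls in both populations, and the groups overlapped. Its partner Ifngr2 had 38.2, 37.1, 18.9 and 42.9 CPM in deleted MPP, against 36.1, 42.0, 42.9 and 41.3 CPM in control MPP. In HSC the deleted libraries held 28.6, 14.9, 12.3 and 16.7 CPM, against 17.1, 21.8, 17.9 and 16.4 CPM in controls. Deleted mouse 3 was again the lowest in both. Il10rb had 98.8, 83.0, 126 and 115 CPM in deleted MPP, against 97.5, 85.4, 95.4 and 85.5 CPM in control MPP. HSC of deleted mice had 68.2, 34.5, 63.9 and 54.5 CPM, against 62.0, 56.0, 37.5 and 45.0 CPM in controls, with overlapping groups. In HPC-1 the ranges of deleted and control mice overlapped for each of the 5 chains. Ifnar1 lay at 119 to 138 CPM in deleted and 103 to 140 CPM in control mice, and Ifnar2 at 134.5 to 179 CPM in deleted and 145 to 167.5 CPM in control mice. Ifngr1 lay at 111 to 163 CPM in deleted and 119 to 141 CPM in control mice, and Ifngr2 at 27.0 to 38.4 CPM in deleted and 31.2 to 37.5 CPM in control mice. Il10rb lay at 83.7 to 94.7 CPM in deleted and 80.2 to 94.4 CPM in control mice.

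In edgeR's quasi-likelihood test, 0 of the 5 chains passed an adjusted p of 0.05 in HSC, MPP or HPC-1, where 0.0073%, 0.029% and 0.0647% of all genes passed, and 0 of the 10 members did. Deleted and control libraries failed to overlap for 0 of the 10 members in each population, against 3.16%, 5.74% and 3.66% of all genes. Unadjusted p fell under 0.05 for 0 of the 10, against 3.86%, 8.09% and 4.99% of all genes, and DESeq2 called 0 as well. In MPP the log2 fold changes were -0.32 ± 0.22 for Ifnar1, 0.25 ± 0.17 for Ifnar2, 0.30 ± 0.19 for Ifngr1, -0.25 ± 0.24 for Ifngr2 and 0.21 ± 0.18 for Il10rb (SE, 4 against 4, edgeR adjusted p of 0.645 to 0.736). Without the library of deleted mouse 3, Ifnar1 stood at -0.13 and Ifngr2 at -0.05. In HSC the 5 values ran from -0.01 to 0.14 and in HPC-1 from -0.07 to 0.06. For receptor chains and kinases together, the 95% intervals of the log2 fold change stayed between -0.68 and 0.68 for HSC, between -0.95 and 0.77 for MPP and between -0.36 and 0.29 for HPC-1.

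The kinases showed no detected change either. Jak1 had 616, 716, 1100 and 650 CPM in deleted MPP, against 642, 600, 757 and 520 CPM in control MPP. In deleted HSC the values were 562, 604, 406 and 522 CPM, against 499, 510, 602 and 459 CPM in controls. Deleted mouse 3 held the highest Jak1 of MPP and the lowest of HSC. Jak2, the kinase of Ifngr2 and of the receptors for erythropoietin and thrombopoietin, had 101, 145, 38.8 and 116 CPM in deleted MPP, against 111, 125, 146 and 74.6 CPM in control MPP. Deleted HSC held 114, 183, 99.2 and 126 CPM, against 85.5, 136, 142 and 102 CPM in controls. The MPP library of deleted mouse 3 was the lowest of all 16 for Jak2, and for Tyk2 as well. Tyk2 had 86.8, 95.7, 36.4 and 110 CPM in deleted MPP, against 90.3, 87.9, 87.9 and 118 CPM in control MPP. HSC libraries of deleted mice held 67.1, 73.5, 71.9 and 130 CPM, against 101, 94.4, 54.6 and 109 CPM in controls, with deleted mouse 4 far above its group.

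The log2 fold changes in MPP were 0.29 ± 0.22 for Jak1, -0.20 ± 0.34 for Jak2 and -0.23 ± 0.29 for Tyk2, and without the library of deleted mouse 3 they were 0.07, 0.07 and 0.02. In HSC they were 0.02 ± 0.16, 0.17 ± 0.23 and -0.07 ± 0.26. The HPC-1 libraries gave the narrowest estimates, -0.02 ± 0.08 for Jak1, 0.08 ± 0.10 for Jak2 and 0.07 ± 0.09 for Tyk2, from levels of 394 to 433, 122 to 145 and 100 to 132 CPM in deleted and 394 to 454, 110 to 142 and 106 to 117 CPM in control mice.

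**Figure D2:**
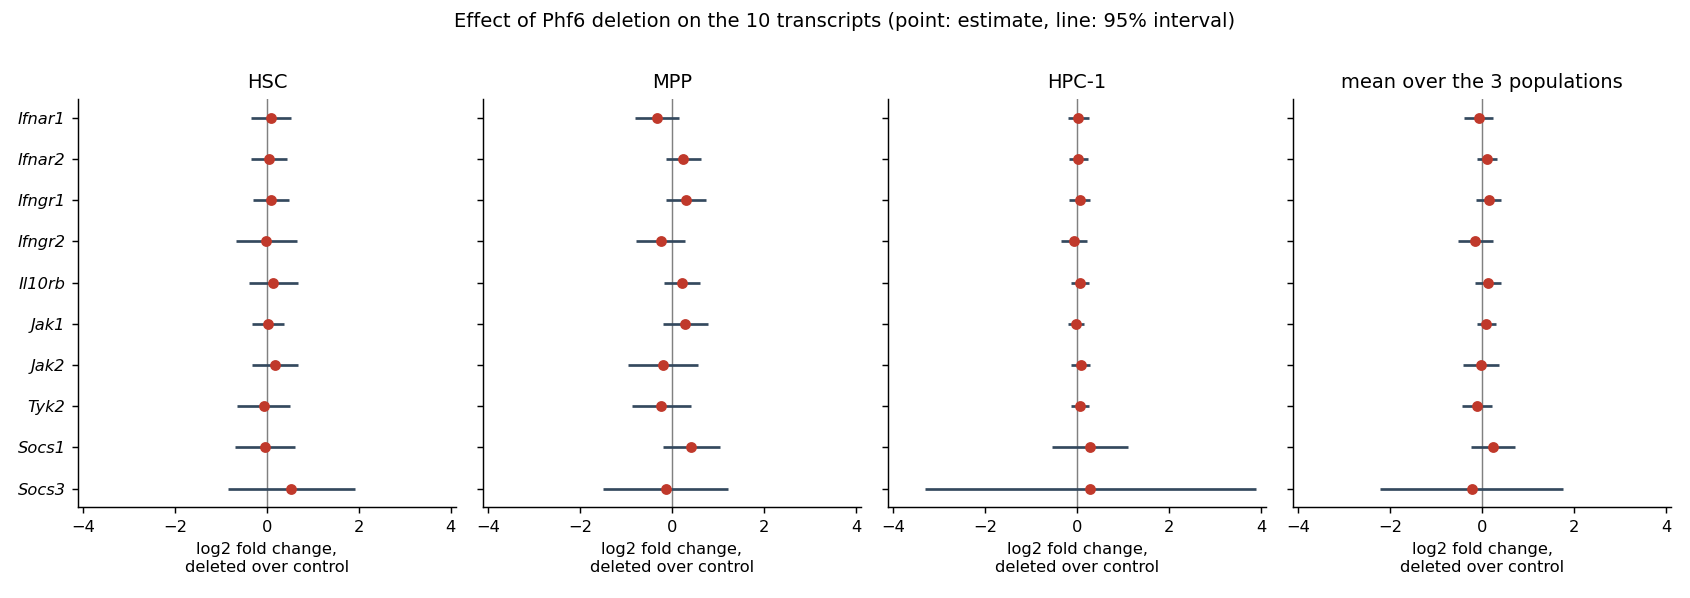
Log2 fold change of deleted over control mice for the 10 transcripts in HSC, MPP, HPC-1 and the mean over the 3 populations, with 95% intervals from edgeR (limma for the mean). All intervals cross 0, and that of Socs3 in HPC-1 is the widest, from -3.31 to 3.89.

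Of the feedback inhibitors, Socs1 was scarce in every population and Socs3 in HSC and MPP. Socs3 was highest in litter 4 of every group. Socs1, which blocks JAK catalytic activity, had 15.6, 9.25, 19.2 and 13.3 CPM in deleted MPP, against 9.31, 10.2, 9.94 and 13.2 CPM in control MPP. In HSC of deleted mice there were 14.2, 12.2, 13.2 and 8.07 CPM, against 11.8, 11.2, 12.7 and 13.7 CPM in controls. In HPC-1 it had 6.14, 4.80, 3.72 and 4.03 CPM in deleted mice, against 2.73, 4.17, 2.06 and 6.32 CPM in controls. In each population the deleted mouse exceeded its littermate in 3 of 4 litters, though the groups overlapped. Its log2 fold change was 0.42 ± 0.28 in MPP, -0.04 ± 0.30 in HSC and 0.29 ± 0.39 in HPC-1 (edgeR adjusted p = 0.65, 0.998 and 0.999).

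Socs3, which binds the gp130 family of receptors and their JAKs, had 24.3, 7.31, 9.56 and 243 CPM in deleted HPC-1, against 23.5, 17.3, 13.1 and 178 CPM in control HPC-1. In MPP it had 9.76, 7.19, 2.25 and 29.7 CPM in deleted mice, against 12.9, 9.78, 8.84 and 22.5 CPM in controls. In HSC the deleted mice had 6.51, 2.54, 5.32 and 22.5 CPM, against 6.36, 4.13, 3.87 and 11.2 CPM in controls. Litter 4 was the highest of its group in all 6 groups, deleted and control, and the groups of a population overlapped. The log2 fold change was 0.29 ± 1.48 in HPC-1, -0.14 ± 0.62 in MPP and 0.53 ± 0.63 in HSC (edgeR adjusted p = 0.999, 0.947 and 0.998). Without litter 4 it was -0.38, -0.71 and -0.01, so the sign in HPC-1 and HSC rested on that litter, and none of these passed. The summed neutrophil and monocyte markers were also highest in deleted mouse 4 of each population (3090, 13600 and 10600 CPM in HPC-1, MPP and HSC), while control mouse 4 had 991, 2480 and 3490 CPM, within the range of its group. Their part in Socs3, Ifngr1 or Tyk2 of mouse 4 was not tested.

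**Figure D3:**
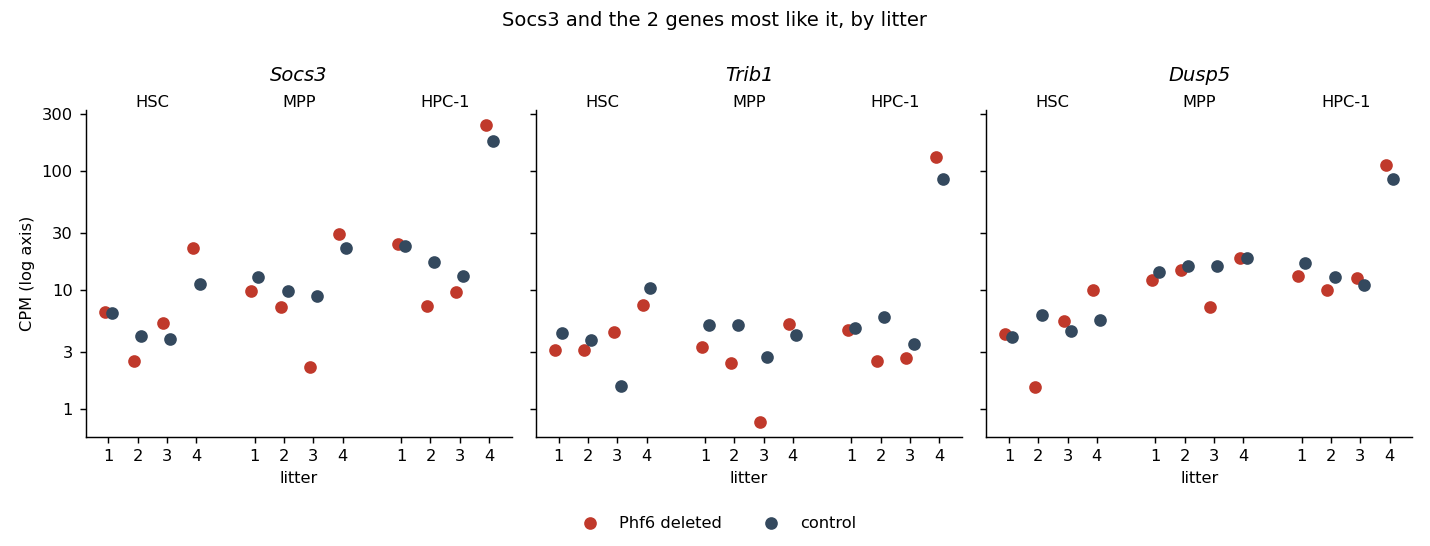
CPM (log axis) of Socs3 and of Trib1 and Dusp5, the 2 genes most like it over the 24 libraries, by litter within each population, with deleted mice in red and controls in blue. In HPC-1 both mice of litter 4 lie far above the other 6 for all 3 genes.

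Averaging each mouse over its 3 populations gave no detected change in a member. In limma on the 8 mice, the log2 fold changes ran from -0.22 ± 0.85 for Socs3 to 0.24 ± 0.22 for Socs1, with adjusted p of 0.756 to 0.984. Here 0 of the 10 members passed, against 0.101% of all genes (0.0779% past it and higher), and 0 had an unadjusted p under 0.05, against 8.89%. Receptor chains were at -0.15 ± 0.18 (Ifngr2) to 0.14 ± 0.13 (Ifngr1) and kinases at -0.11 ± 0.15 (Tyk2) to 0.09 ± 0.10 (Jak1). The median of the 10 was 0.036 and that of all genes tested -0.016.

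An interaction term asked if deletion acted differently from population to population. HPC-1 libraries were made with another kit, so in the contrasts with HPC-1 population and kit cannot be told apart. The term passed for 0 members and for 0% of all genes in MPP minus HSC, 0% in HPC-1 minus HSC and 0% in HPC-1 minus MPP. These fits had no mouse block, and with it 0 genes passed in each. In edgeR 417, 518 and 668 genes (2.86%, 3.46% and 4.48%) had an unadjusted p under 0.05, none of them a member, and DESeq2 called 2, 11 and 7 genes, none a member. The members' differences lay between -0.67 and 0.47 for MPP minus HSC, -0.23 and 0.33 for HPC-1 minus HSC, and -0.31 and 0.41 for HPC-1 minus MPP.

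In control mice all 5 receptor chains rose in MPP relative to HSC, by 0.51 to 1.14 on the log2 scale, while no kinase or SOCS transcript passed without a mouse block. For each chain the 4 MPP libraries listed above lay over all 4 HSC libraries, and each of the 4 mice had more in its MPP than in its HSC. Ifngr2 rose most, averaging 40.6 ± 3.1 CPM in MPP and 18.3 ± 2.4 CPM in HSC (SD, n = 4 each; log2 fold change 1.14 ± 0.16, edgeR adjusted p = 0.000827). Il10rb rose by 0.85 ± 0.16 (adjusted p = 0.00524), Ifngr1 by 0.70 ± 0.14 (0.00832), Ifnar2 by 0.60 ± 0.14 (0.0168) and Ifnar1 by 0.51 ± 0.15 (0.0479). The 5 calls compare with 8.84% of all genes past the threshold and 4.06% past it and higher in MPP, and the 5 groups without overlap with 7.68% of all genes that were higher without overlap. Their median was 0.70, against -0.007 over all genes tested.

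With the mouse as a block all 5 chains passed (edgeR adjusted p of 0.000595 to 0.01). They also passed with DESeq2 (4.7e-09 to 0.013) and with limma-voom (0.000957 to 0.0381), both without a block. In edgeR fits without a block, the 5 calls were not equally firm when libraries were left out. Ifngr2, Il10rb and Ifngr1 passed whichever of the 8 libraries was left out. Ifnar2 did not pass without the HSC library of control mouse 2 (adjusted p = 0.0562), and Ifnar1 passed only when that same library was the one left out (0.0335, up to 0.119 in the other 7 fits). Without both mice of litter 4, chosen as an alternative after the data were seen, 3 chains passed (adjusted p of 0.0109 to 0.0353), and Ifnar2 (0.0675) and Ifnar1 (0.106) did not. The neutrophil and monocyte markers summed to 2410, 2760, 216 and 2480 CPM in control MPP and 7480, 3450, 611 and 3490 CPM in control HSC, higher in the HSC library of each mouse. None of the 13 passed, and their median log2 fold change was -0.924. Of 6 megakaryocyte markers 5 fell in MPP, with a median of -3.168 over the 6. Itga2b, the integrin chain CD41, fell by 2.81 ± 0.14 (edgeR adjusted p = 1.83e-07) and Vwf, von Willebrand factor, by 3.91 ± 0.37 (9.1e-05), both known in stem cells as well as in megakaryocytes. Pf4 (-3.52), Gp9 (-2.09) and Gp1bb (-6.72) fell as well, and Ppbp was at -0.35 ± 0.54. The 6 markers summed to 115 to 149 CPM in control MPP and 850 to 1460 CPM in control HSC, with none at 0 in either group. The part of either marker list in the receptor levels was not tested.

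**Figure D4:**
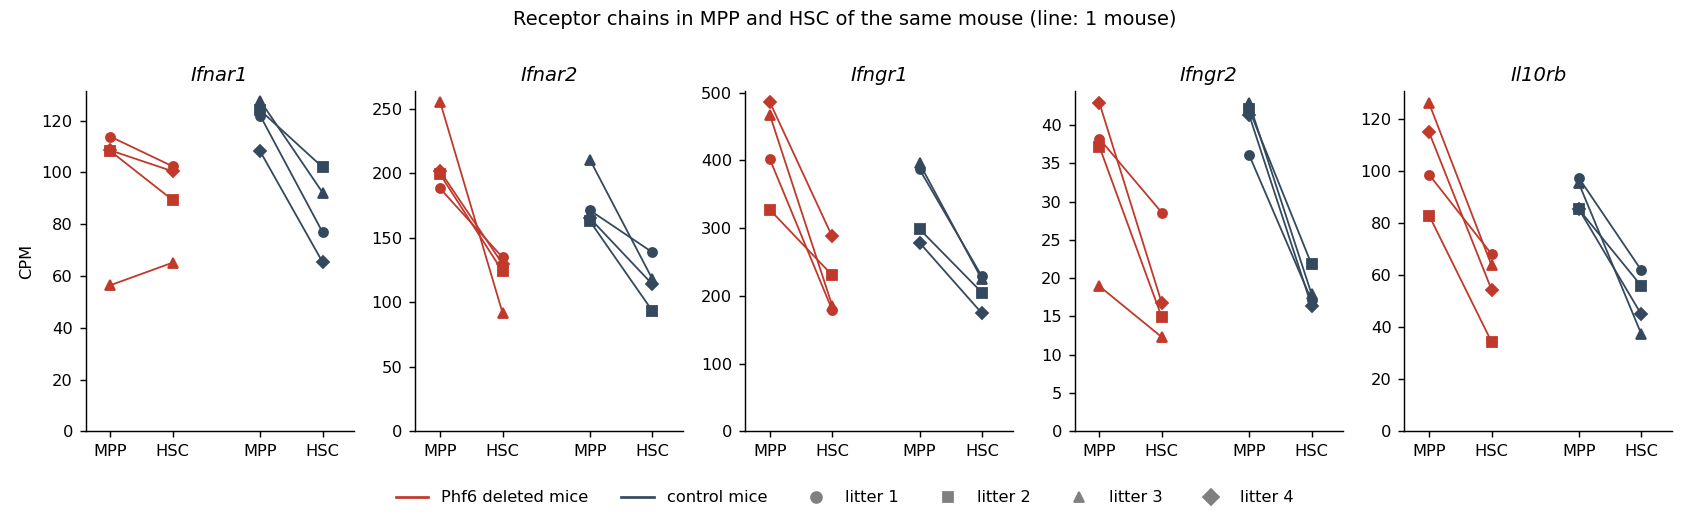
CPM of the 5 receptor chains in MPP and HSC of the same mouse, joined by a line, for Phf6-deleted mice in red and control mice in blue, with symbols for litters. In control mice every line falls towards HSC for all 5 chains, and in deleted mice the line of litter 3 rises for Ifnar1.

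In deleted mice none of the chains passed. The log2 fold change of MPP over HSC was 0.91 ± 0.22 for Ifngr1 (edgeR adjusted p = 0.0729), 0.79 ± 0.20 for Ifnar2 (0.0831), 0.91 ± 0.26 for Il10rb (0.117), 0.90 ± 0.35 for Ifngr2 (0.265) and 0.09 ± 0.26 for Ifnar1 (0.909). The same 5 megakaryocyte markers fell, with a median of -3.362 over the 6, and the 6 summed to 94.3 to 168 CPM in deleted MPP and 799 to 1430 CPM in deleted HSC. Of the 10 members 0 passed, against 1.41% of all genes (0.641% past the threshold and higher), and DESeq2 called Ifngr1, Il10rb and Ifnar2. The libraries of Ifnar2, Ifngr1, Il10rb and Jak1 did not overlap, 4 of 10 members against 5.96% of all genes higher without overlap. Ifnar1 was higher in the MPP of mice 1, 2 and 4 but lower in that of mouse 3 (56.4 CPM in MPP and 65.2 CPM in HSC), and without the MPP library of mouse 3 it stood at 0.29 and Ifngr2 at 1.10. The interaction test, which asks whether the MPP-to-HSC difference depends on deletion, passed for none of the chains.

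No kinase transcript passed between MPP and HSC in control mice without a block: Jak1 was at 0.27 ± 0.14, Jak2 at -0.04 ± 0.21 and Tyk2 at 0.09 ± 0.20 (edgeR adjusted p = 0.263, 0.941 and 0.839). Among the inhibitors Socs3 was at 1.08 ± 0.40 (adjusted p = 0.126), higher in the MPP of 4 of 4 mice in groups that overlapped, and Socs1 at -0.22 ± 0.23 (0.646). With the mouse as a block, which the labels support since MPP and HSC of a number are the same mouse, Jak1 (0.27, adjusted p = 0.0305) and Socs3 (1.10, 0.0122) also passed, and 2109 genes in all instead of 1205. Socs3 passed without the block only when the HSC library of control mouse 4 was left out (0.0361). In deleted mice Jak1 was at 0.54 ± 0.23 (adjusted p = 0.32), Jak2 at -0.41 ± 0.35, Tyk2 at -0.08 ± 0.34, Socs1 at 0.24 ± 0.35 and Socs3 at 0.39 ± 0.79.

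The ligands of these receptors were almost unseen. Of 14 interferon and related genes, 10 had no count in any of the 24 libraries, among them Ifna4 and the lambda interferon genes Ifnl2 and Ifnl3. Ifnb1 had 3 counts in all, Ifng 7, all in 1 control library, and Ifnk 8. Il10 had 304 counts, 87 in deleted and 217 in control mice, with 198 in 1 library. None reached the filter, and a count of 0 in these cells gives no level for cells elsewhere in the marrow.

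Other receptor chains that signal through JAK kinases, 23 genes of which 19 to 21 were tested, held 0 genes past the threshold after deletion in HSC, MPP or HPC-1. Their median log2 fold changes were -0.013, -0.112 and -0.089, against 0.006, 0.019 and -0.004 for all genes. Between MPP and HSC of control mice, 7 of 20 rose and 1 fell, where 8.84% of all genes passed and 4.06% passed and were higher. Calls between MPP and HSC for this list and those below are from fits without a mouse block. Calls of their genes with the block are not reported here. Il10ra, the ligand-binding partner of Il10rb, rose by 2.91 ± 0.39 (edgeR adjusted p = 0.000498), Csf2rb, the beta chain for GM-CSF and interleukin 3, by 1.15 ± 0.25 (0.0123), and Il2rg, the common gamma chain, by 1.10 ± 0.17 (0.00155). Il4ra, the interleukin 4 receptor (0.94), Csf3r, the G-CSF receptor (0.93), Il12rb1 (0.73) and Il21r (0.48) rose as well. Epor, the erythropoietin receptor, fell by 2.50 ± 0.34 (0.000583). With each library left out in turn, Csf3r, Il12rb1 and Il21r passed in 5, 3 and 4 of 8 fits (adjusted p up to 0.0587, 0.109 and 0.0959), and the other 5 in 8 of 8. In deleted mice Il2rg rose by 1.43 ± 0.21 (0.0101) and Epor fell by 2.60 ± 0.50 (0.0316). These were the 2 of 20 that passed, against 1.41% of all genes. Epor passed there only without the MPP library of deleted mouse 2 or 3 (up to 0.0957 in the other 6 fits).

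Of the 11 STAT and IRF factors, 0 passed after deletion in any population. Irf9, the DNA-binding part of the complex that type I interferon activates, was at 0.69 ± 0.19, 0.48 ± 0.16 and 0.36 ± 0.10 in HSC, MPP and HPC-1 (edgeR adjusted p = 0.998, 0.553 and 0.449). It is itself an interferon-induced gene. In MPP relative to HSC of control mice 3 of 11 rose: Irf9 (0.71 ± 0.14, adjusted p = 0.00591), Irf1 (0.53 ± 0.12, 0.0153) and Stat3 (0.47 ± 0.11, 0.0168). Of all genes tested in that comparison, 4.06% passed and were higher. Irf1 and Stat3 did not pass without the HSC library of control mouse 2 (0.0557 and 0.0576). The 6 other SOCS family genes held 0 calls after deletion, and 1 in MPP relative to HSC of control mice, Socs5 (0.71 ± 0.12, 0.0025). Of 12 other negative regulators 0 passed after deletion. Usp18, which removes ISG15 from proteins and blocks Ifnar2, stood at 0.68 ± 0.21, 0.61 ± 0.23 and 0.70 ± 0.22 in the order HSC, MPP and HPC-1 (0.998, 0.597 and 0.636). In MPP relative to HSC of control mice 2 of the 12 rose, Sh2b3 (0.55 ± 0.13, 0.0201), an adaptor that restrains Jak2, and Ptprc (0.59 ± 0.16, 0.0364), the phosphatase CD45. Sh2b3 did not pass without the MPP library of control mouse 1, 2 or 4 (up to 0.0641), and Ptprc passed only without the HSC library of control mouse 1 or the MPP library of control mouse 4 (up to 0.115 otherwise).

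The genes downstream of the receptors lay higher after deletion, with few of them past the threshold. Of 20 type I interferon induced genes, 16, 20 and 19 had a higher estimate in deleted HSC, MPP and HPC-1, with medians of 0.505, 0.596 and 0.513, and 0 passed in each. The 13 mature neutrophil and monocyte markers also had a higher estimate in deleted mice, 13 of 13 in each population and in the mean, with medians of 0.572, 1.23 and 0.53 in HSC, MPP and HPC-1 and 0.638 in the mean, and 0 of them passed. Their summed levels are given above, and their part in the interferon-induced genes was not tested. Without the MPP library of deleted mouse 3, Ifit3 passed in MPP (adjusted p = 0.0435), as did Iigp1 (0.0152) and Cxcl10 (0.0188) of the interferon gamma induced genes. Over the mean of the 3 populations 3 of 20 rose in limma: Rsad2, the antiviral enzyme viperin (1.14 ± 0.15, adjusted p = 0.00945), Ifit1 (1.05 ± 0.16, 0.0282) and Ifi44 (0.89 ± 0.13, 0.0197). Of all genes in the mean, 0.0779% passed and were higher. Of the interferon gamma induced genes Iigp1, an immunity-related GTPase, rose in HPC-1 (1.43 ± 0.19, edgeR adjusted p = 0.00964) and in the mean (1.31 ± 0.16, limma adjusted p = 0.00943), and the list had medians of 0.452, 0.473 and 0.268 with 11 of 13, 13 of 14 and 13 of 14 higher. The receptor chains' own medians were 0.085, 0.214 and 0.032 in the same populations and 0.108 in the mean. In fits that each left out 1 mouse, Iigp1 passed in the mean in 7 of 8 (adjusted p = 0.0589 without control mouse 4) and Rsad2 in 6 (up to 0.0598 without control mouse 2 or 4). Ifi44 passed in 4, not without deleted mouse 1 or control mouse 1, 2 or 4 (up to 0.108), and Ifit1 only without mouse 3 of either group (up to 0.117 otherwise). Without both mice of litter 4, none of these 4 passed in the mean (log2 fold changes of 0.80 for Ifi44, 1.04 for Rsad2, 1.06 for Ifit1 and 1.36 for Iigp1, adjusted p = 0.191, 0.109, 0.166 and 0.0653), while Iigp1 passed in HPC-1 (0.0183). In HPC-1, Iigp1 did not pass without deleted mouse 1 or control mouse 2, 3 or 4 (up to 0.0718). These lists were known to lie higher from earlier results of the same libraries, so their direction is no independent support.

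**Figure D5:**
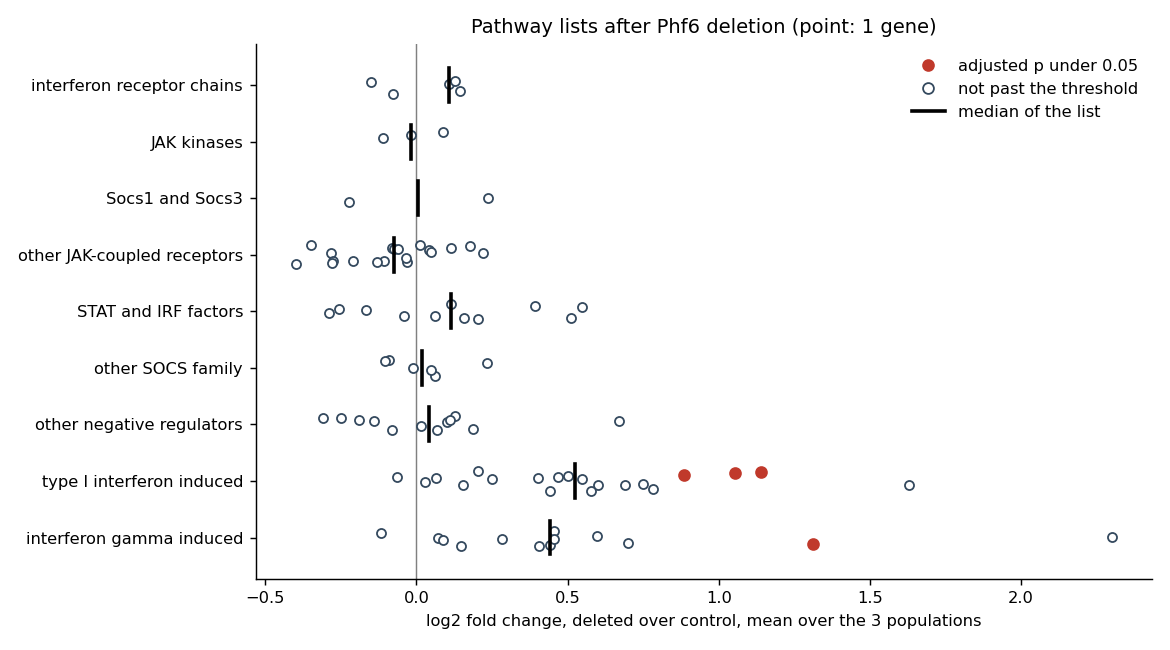
Log2 fold change of deleted over control mice in the mean over the 3 populations for each gene of 9 pathway lists, with filled red points for adjusted p under 0.05 in limma and black bars for list medians. Receptor chains, kinases and SOCS genes sit around 0, and the 4 genes past the threshold are all in the interferon-induced lists.

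The same downstream lists were set between MPP and HSC of control mice. Of the 20 type I induced genes 5 rose and 1 fell, with Rtp4 (1.31 ± 0.18, edgeR adjusted p = 0.0006), Oas2 (1.26 ± 0.31, 0.0207), Irf7 (0.74), Ifi44 (0.68) and Oasl2 (0.61) higher and Ifit2 lower (-0.77 ± 0.15, 0.00687). Of 13 interferon gamma induced genes 1 rose, the GTPase Irgm1 (0.58 ± 0.16, 0.0395). Over all genes 8.84% passed and 4.06% passed and were higher, so 1 of 13 is no result about that list. The medians were 0.449 and 0.377. Rtp4 and Ifit2 passed whichever library was left out, and Oas2, Oasl2, Ifi44, Irgm1 and Irf7 in 4, 4, 3, 3 and 2 of 8 fits (adjusted p up to 0.0702, 0.096, 0.109, 0.117 and 0.108). In deleted mice 1 of the 20 rose, Rtp4 (1.80 ± 0.30, adjusted p = 0.0165), which did not pass without the HSC library of deleted mouse 1, 2 or 3 (up to 0.0672). There 0.641% of all genes passed and were higher.

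The genes whose pattern was most like that of each member were ranked by Pearson's r of log2 CPM over the 24 libraries, each centred on the mean of its population. This is a description: the 24 libraries share 8 mice, and r moves with any library that stands apart. Socs3 was most like Trib1, a pseudokinase gene (r = 0.92), and Dusp5, a nuclear phosphatase of ERK (0.907). In HPC-1, Trib1 had 130 CPM in deleted mouse 4 and 85.5 CPM in control mouse 4, against 2.51 to 5.97 CPM in the other 6 mice, and Dusp5 had 111 and 85.8 CPM, against 10.03 to 16.87 CPM. Jak1 was most like Cept1 (0.925) and Matr3 (0.912), Tyk2 like Gtf3c1 (0.908) and Eml3 (0.905), and Jak2 like Mob1a (0.88) and Ticam2 (0.878). Among the receptor chains, Ifngr2 was most like Shc1 (0.87) and Zswim4 (0.849), Ifnar1 like Sesn2 (0.867) and Zfp189 (0.865), and Ifnar2 like Tet2 (0.856) and Asxl2 (0.828). Ifngr1 was most like Idh1 (0.817) and Ypel5 (0.808), Il10rb like a gene with no name in the table used (0.84) and Ttc5 (0.825), and Socs1 like 2310068J16Rik (0.83) and 2010204K13Rik (0.766). Spearman's rho, taken on ranks, was below r for each of these pairs (0.626 to 0.902), except Ifnar2 and Tet2 (0.874). It was 0.659 to 0.694 for the partners of Ifngr2 and Ifnar1. Each partner had its lowest or highest MPP level in deleted mouse 3. Sesn2 was at 1.56 CPM there, against 9.48 to 27.8 CPM in the other MPP libraries. Cept1 was at 330 CPM, against 147 to 216 CPM. How far r rested on this MPP library was not tested. No member was among the 2 genes most like another member.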

How the data were processed

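The authors deposited raw counts of reads per gene as whole numbers. The submitters' processing notes name bcl2fastq, featureCounts and the build mm10. Aligner, annotation, versions and strand setting: not given in the sources used here. The deposited table also gives a gene length, used only for levels per kilobase. Per the labels' protocols, HSC and MPP libraries were made with SMART-Seq v4 and Nextera XT, which do not mark strand, and HPC-1 libraries with TruSeq Stranded, read as 80 bp pairs, so kit and population cannot be told apart for HPC-1. Of 27179 Entrez identifiers, 25275 were named from the RefSeq GRCm38.p6 gene table.

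Each comparison was fitted over all genes with edgeR 4.0.16 (R 4.3.3): TMM, the default expression filter (count 10, total 15), the robust quasi-likelihood test and Benjamini-Hochberg adjustment, with a threshold of 0.05. The SE is the log2 fold change divided by the square root of F. The mean over populations used limma 3.58.1 on log2 CPM (prior count 2) averaged per mouse. Levels are CPM with TMM over the 16 HSC and MPP libraries together and the 8 HPC-1 libraries apart. Alternatives were DESeq2 1.42.0, limma-voom, other size factors, no filter, a prior count of 0.5, a litter or mouse block, edgeR over 24 libraries, each library left out, and, added after the data were seen, both mice of litter 4 left out. The models for deletion in each population and for the mean were also run on simulated counts. Those had the same dispersion for all genes of a population and no litter or mouse effects, and their outcome is not reported here.

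All 10 members are named in every comparison. From the pathway lists, every gene past the threshold is named, and otherwise up to 3 with the lowest p, of which 1 is not reported here. Cell type marker lists are given by counts, sums and examples, except the erythroid and plasmacytoid dendritic cell lists, which are not reported here. The members and lists were chosen with earlier results of these data known. The labels pair the libraries by litter and mouse. Same-numbered deviations from group means had correlations over genes of 0.0032 to 0.063 (HSC), 0.032 to 0.18 (MPP) and 0.039 to 0.4 (HPC-1), and of 0.015 to 0.41 (deleted) and 0.18 to 0.37 (control) between MPP and HSC of a mouse. Those of differing numbers ran from -0.11 to 0.074, -0.23 to 0.14, -0.24 to 0.089, -0.35 to 0.12 and -0.18 to 0.013 in the same order. In HSC the litters thus did not stand out. No pair of libraries of a group agreed within sampling noise (chi-square per degree of freedom 16.1 to 234).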

Additional observations from a re-analysis of the deposited data

Results flagged for a closer look

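In 66 sets of 4 libraries (Phf6 and the 10 members in 6 groups), 5 held a library far from the other 3 by Dixon's criterion, which chance reaches in about 1 of 20. Ifnar1 was at 56.4 CPM in MPP of deleted mouse 3, against 108 to 114 CPM in the other 3. Tyk2 was at 130 CPM in HSC of deleted mouse 4, against 67.1 to 73.5 CPM, and at 118 CPM in MPP of control mouse 4, against 87.9 to 90.3 CPM. Socs3 was at 243 CPM in HPC-1 of deleted mouse 4, against 7.31 to 24.3 CPM, and at 178 CPM in HPC-1 of control mouse 4, against 13.1 to 23.5 CPM. Of these 5 libraries, 4 came from litter 4.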

How the results depend on the processing

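Over 830 refits of a member under another setting, 745 kept direction and side of the threshold, 10 lost a call, 6 gained one and 69, none of them called, changed sign; the cause was not tested. The number of members past the threshold stayed at 0 in all deletion comparisons, in all 3 tests of a differing effect and in the mean. In MPP against HSC it was 4 to 5 with 1 library left out and 3 without litter 4 in control mice, and 3 with DESeq2 in deleted mice. Over all genes, DESeq2 called 14 in HSC, 96 in MPP, 68 in HPC-1 and 843 in MPP against HSC of deleted mice, where edgeR called 1, 4, 9 and 196, and 2, 11 and 7 in the differing effects (MPP minus HSC, HPC-1 minus HSC, HPC-1 minus MPP), where edgeR called 0. The replicate block (litter or mouse) gave 0 in HSC, 60 in HPC-1 and 2109 in MPP against HSC of controls (1205 without it), and changed no other call of a member than Jak1 and Socs3 in the last. No filter gave 20 in HPC-1. Without litter 4 the counts were 0 in MPP, 761 and 55 in MPP against HSC of control and deleted mice, and 2 in the mean, where limma called 13 and edgeR over 24 libraries 121. Without litter 4, of the pathway-list genes past the threshold, 10 of 21 passed in MPP against HSC of control mice, 0 of 3 in that of deleted mice, 0 of 4 in the mean and 1 of 1 in HPC-1. With 1 library or mouse left out the counts over all genes ran over 0 to 1 in HSC, 2 to 22 in MPP, 1 to 11 in HPC-1, 54 to 208 in MPP against HSC of deleted mice, 0 to 1 in HPC-1 minus HSC and 4 to 26 in the mean.

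Sign changes outside the fits with 1 library left out were, without litter 4, Ifnar1 (-0.08), Ifnar2 (-0.00), Ifngr1 (-0.15), Jak1 (-0.04), Socs1 (0.15) and Socs3 (-0.01) in HSC, Ifnar1 (-0.01), Ifnar2 (-0.01), Ifngr1 (-0.08) and Socs3 (-0.38) in HPC-1, Jak2 (0.06) in MPP against HSC of control mice, Tyk2 (0.02) in that of deleted mice and Ifngr1 (-0.03) in the mean. The others were Socs3 in HPC-1 with limma-voom (-0.37) and the replicate block (-0.23), and Jak2 (0.02) and Socs3 (0.24) in the mean with edgeR over 24 libraries. With 1 library left out, log2 fold changes that changed sign ran as follows. In HSC after deletion they ran from -0.01 to 0.22 for Ifnar1, -0.04 to 0.17 for Ifnar2, -0.07 to 0.19 for Ifngr1, -0.31 to 0.14 for Ifngr2, -0.05 to 0.13 for Jak1, -0.04 to 0.29 for Jak2, -0.34 to 0.05 for Tyk2, -0.13 to 0.10 for Socs1 and -0.41 to 0.95 for Socs3. In MPP they ran from -0.42 to 0.07 for Jak2, -0.40 to 0.02 for Tyk2 and -1.07 to 0.22 for Socs3. In HPC-1 they ran from -0.05 to 0.10 for Ifnar1, -0.03 to 0.10 for Ifnar2, -0.05 to 0.14 for Ifngr1, -0.15 to 0.02 for Ifngr2, -0.04 to 0.02 for Jak1 and -2.07 to 1.98 for Socs3. In MPP against HSC they ran from -0.17 to 0.12 for Jak2 and -0.08 to 0.20 for Tyk2 in controls, and from -0.02 to 0.29 for Ifnar1, -0.25 to 0.19 for Tyk2 and -0.54 to 1.33 for Socs3 in deleted mice. In the mean they ran from -0.16 to 0.06 for Ifnar1, -0.26 to 0.02 for Ifngr2, -0.14 to 0.17 for Jak2, -0.22 to 0.01 for Tyk2 and -0.98 to 0.25 for Socs3. With 1 library left out, 7 other pathway-list genes passed at least once in MPP against HSC of control mice, 2 in that of deleted mice and 3 in MPP after deletion. Depth limits Socs1, with 35 to 299 counts per library, and Socs3, with 23 to 658 counts per HSC or MPP library. It also limits the ligands, which had too few counts to test.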
